A study of Homo sapiens with 5 samples.

Results

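The genes described here are the oestrogen receptor gene ESR1, 5 genes for its coregulators (NCOA1, NCOA2, NCOA3, NCOR1 and NRIP1), and GREB1 and RARA, which answer to oestrogen in breast cancer cells. NRIP1 belongs to both kinds, as a corepressor and as an oestrogen target. The 8 genes were taken by name from the 27992 gene names of the count table. All 8 had a value in every library, and 7 passed a minimum of 1 count per 1000000 gene reads (CPM) in at least 1 library, ESR1 being the exception.

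RNA was sequenced from 5 libraries of U2OS, an established human osteosarcoma cell line. 1 group was parental U2OS. The other 4 were fractions of U2OS pTRIPZ-YFP-ER-E2F1 parted by flow cytometry, named YFP-negative, YFP-low, YFP-medium and, brightest, YFP-high. In this line a doxycycline-inducible lentiviral vector encodes a yellow fluorescent protein (YFP) joined to the hormone-binding part of the oestrogen receptor (ER) and to E2F1, a transcription factor of S-phase entry. Cells grew with 8% fetal bovine serum. Doxycycline was given at 500 ng/ml for 48 h, and 4-hydroxytamoxifen (OHT) was then added at 90 nM for another 20 h, to every group according to the labels, parental cells included. No library without OHT was analysed here, so what OHT did by itself cannot be read from these data. The labels do not say whether the line is 1 clone, and the species of the ER part is not given. Each group had 1 library, so no spread between samples, no test and no p-value can be given.

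Oestrogen receptors are transcription factors of the nuclear receptor family, switched by hormone. With oestrogen bound they gather coactivators, among them the steroid receptor coactivators NCOA1, NCOA2 and NCOA3, which bring histone acetyltransferases to target genes. With an antioestrogen such as OHT bound, the receptor can instead recruit corepressors such as NCOR1, which carries the deacetylase HDAC3. In the fusion, the ER part holds the protein inactive until OHT binds it, while the DNA contact is made by E2F1.

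Because OHT meets both the fusion and any receptor of the cell, promoters of the 8 genes were searched for the letters of E2F sites and of oestrogen response elements. RefSeq promoter windows (GRCh38.p14, 250 bases before to 50 after a gene start) existed for 6 of the 8 genes, 18 windows in all. GREB1 and NCOA2 had none. The E2F letters TTTCGCGC, TTTGGCGC, TTTCCCGC or TTTGCCGC, on either strand, were in 0 of the 18 windows, against 3.31% of the 35116 windows of all genes. The full oestrogen response element, GGTCA and TGACC with any 3 bases between them, was in 0 of 18, against 0.057% of all windows. A direct repeat for retinoic acid receptors, AGGTCA given 2 times with any 5 bases between on either strand, was also in 0 of 18, against 0.0057%. One arm of the element, GGTCA or its complement TGACC, was in 3 of the 18 windows, against 37.4% of all windows; this arm also lies inside the longer motifs. A match describes letters only, and its absence says nothing about a factor. The stretches with a match follow, 5′ to 3′ on the gene's strand, with matched letters in capitals. The E2F1 promoter is shown for contrast, since it holds E2F letters, and the other 3 show where the arm lies in ESR1, NRIP1 and RARA.
E2F1 promoter, E2F letters, chr20:33686386-33686438, minus strand: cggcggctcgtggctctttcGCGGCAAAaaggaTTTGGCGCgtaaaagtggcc
ESR1 promoter, GGTCA, chr6:151690478-151690522, plus strand: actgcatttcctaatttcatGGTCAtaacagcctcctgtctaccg
NRIP1 promoter, TGACC, chr21:15065146-15065190, minus strand: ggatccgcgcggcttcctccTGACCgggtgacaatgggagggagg
RARA promoter, GGTCA and TGACC, chr17:40308931-40309112, plus strand: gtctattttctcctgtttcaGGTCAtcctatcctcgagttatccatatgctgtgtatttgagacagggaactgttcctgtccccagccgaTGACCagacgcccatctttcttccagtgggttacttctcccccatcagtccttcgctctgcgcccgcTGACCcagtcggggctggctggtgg
In RARA the 3 arms all lay in 1 of its 3 windows and began 229, 159 and 92 bases before the start of that window's transcript. The single arm of NRIP1 lay in 1 of its 3 windows, 170 bases before that start. That of ESR1 lay in 1 of its 6 windows, 29 bases before that start. Whether these arms bear on the levels of the genes was not tested. The 2 E2F matches of E2F1 began 33 and 20 bases before its start.

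Libraries held 70.7 M to 76.5 M reads in genes. E2F1, the check of the sort, followed the gates: parental cells had 86.1 CPM, YFP-negative cells 106, YFP-low cells 163, YFP-medium cells 361 and YFP-high cells 996 CPM. Endogenous and construct E2F1 reads cannot be told apart in gene counts. The osteoblast factor RUNX2 had at least 2376 reads in every library. The late osteoblast gene IBSP had at most 1 read, and the luminal breast keratin KRT19 had 0 in all 5. Other luminal breast markers were present: 6 of 10 reached 1 CPM in each library. Their sums lay between 458 and 578 CPM and came mostly from the keratins KRT8 and KRT18. Libraries were scaled by TMM, the trimmed mean of M values. To be called higher or lower, a gene had to pass 2-fold on the log2(CPM + 0.5) scale, with an exact 95% counting interval clear of no change. Folds are ratios of CPM. Intervals cover counting error only, and PCR copies of a molecule are counted as separate reads. Since RNA was pooled from many cells, fewer cells with a transcript and less of it per cell cannot be told apart.

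Among the 7 genes that passed the minimum, NCOA1 and NRIP1 were called higher and RARA lower in YFP-high cells relative to YFP-negative cells. Called genes made up 31.7% of the 15109 genes analysed, so 3 of 7 is near the background. With no minimum, 3 of 8 were called, against 17.7% of all 27992 genes. Higher calls alone were 20.5% of all genes and lower calls 11.3%. With total counts in place of TMM, the median of all genes moved by −0.26 on the log2 scale and higher genes were 45.7% of those called in place of 64.4%; NRIP1 then missed the threshold at a log2 ratio of 0.96. With the deposited TPM the median moved by −0.12 and the share was 56.4%. The median log2 ratio of the 7 genes was −0.04, as was that of all genes. The group was therefore mixed, with NCOA1 and NRIP1 at one end, RARA at the other, and NCOR1 at the middle.

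**Figure D1:**
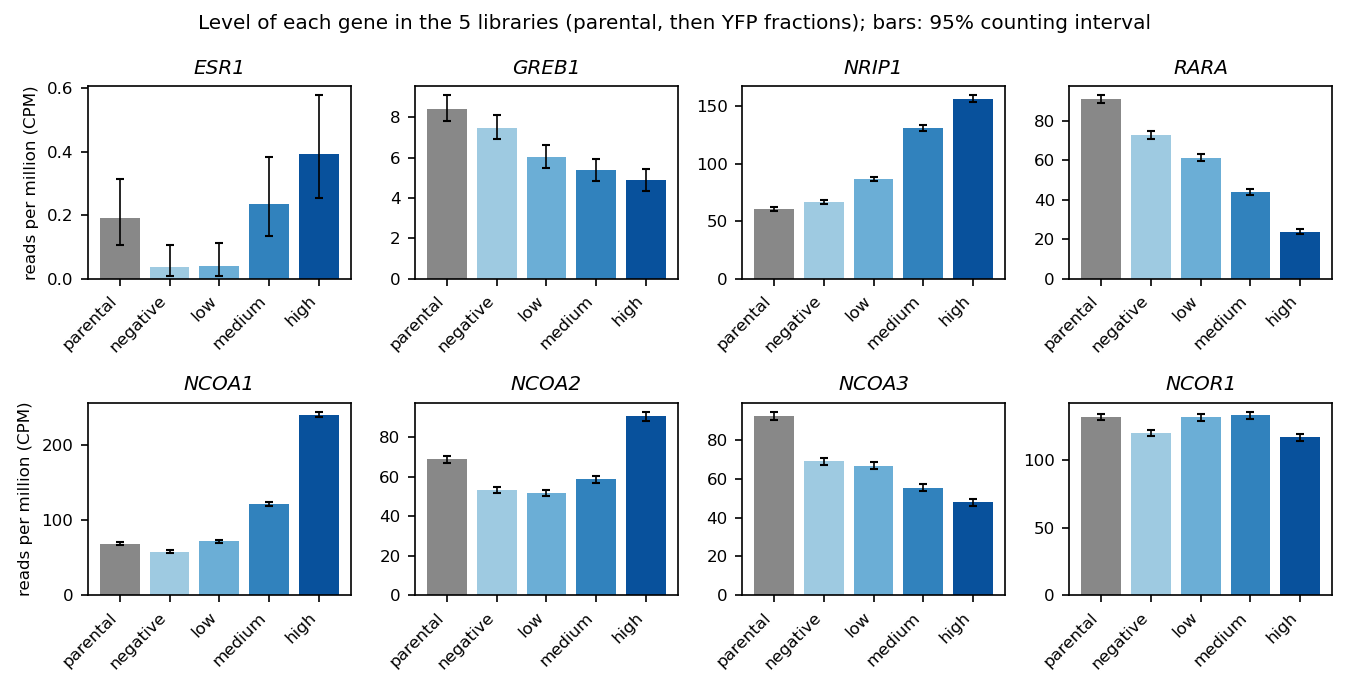
Level of each of the 8 genes (CPM, linear axis from 0, a scale of its own per gene) in parental, YFP-negative, YFP-low, YFP-medium and then YFP-high cells, 1 library each; bars are exact 95% counting intervals. NCOA1 and NRIP1 are highest in YFP-high cells at 241 and 156 CPM, RARA is lowest there at 23.7 CPM, and ESR1 stays under 1 CPM throughout.

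ESR1 encodes oestrogen receptor alpha, the classical receptor of breast and uterus. It was low in all 5 libraries, and in YFP-negative and YFP-low cells it had 3 reads, the counting floor. For ESR1, parental cells had 0.190 CPM, YFP-negative cells 0.0360, YFP-low cells 0.0388, YFP-medium cells 0.236 and YFP-high cells 0.391 CPM. These levels rest on 15, 3, 3, 16 and 25 reads in the same order. YFP-high and YFP-medium cells did not differ beyond counting error (1.66-fold, 0.850 to 3.32), nor did YFP-medium and parental cells (1.24-fold, 0.575 to 2.70). YFP-high cells exceeded YFP-negative cells by 10.9-fold, with a counting interval of 3.32 to 56.3 that rests on 25 against 3 reads. At most 0.129 transcripts per 1000000 (TPM) were deposited for ESR1 in any library. In the RefSeq annotation ESR1 overlaps SYNE1, a nuclear envelope gene with 4984 to 6769 reads per library. No source used here gives the strand setting of the counting, so reads from ESR1, from SYNE1 and from the ER part of the construct cannot be told apart.

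The second oestrogen receptor, ESR2, encodes oestrogen receptor beta, which binds the same response element and OHT too. It rose at every step of the sort. For ESR2, parental cells had 1.45 CPM, YFP-negative cells 2.04, YFP-low cells 4.36, YFP-medium cells 9.87 and YFP-high cells 20.1 CPM. That made YFP-high cells 9.85-fold higher than YFP-negative cells (8.39 to 11.6). Per length, ESR2 had 4.98 TPM in YFP-medium cells, against 1.11 TPM in YFP-negative cells, and it stood above ESR1 in every library. GPER, a membrane receptor that answers to oestrogen, went the other way, with 0.845 CPM in YFP-high cells against 2.94 CPM in YFP-negative cells (3.48-fold lower, 2.58 to 4.76).

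The list of nuclear receptors, which includes ESR1 and RARA, held 42 genes, of which 37 were analysed. In YFP-high relative to YFP-negative cells 17 were called higher, 4 lower and 16 neither, where 20.5% of all genes were higher and 11.3% lower. The median log2 ratio of the list was 0.78, against −0.04 for all genes. Some of the higher genes reached 1 CPM only in YFP-high cells, so the minimum itself favoured a higher call for them. With no minimum, 17 of 42 were higher and 4 lower, at a median of 0.60, against 3225 higher and 1733 lower of all 27992 genes. A minimum of 5 CPM, which can also be met in YFP-high cells alone, left 30 genes, 14 higher and 4 lower, at a median of 0.69. Scaling to total counts gave 13 higher and 8 lower genes, at a median of 0.57. Of all 15099 genes analysed with that scaling, 2415 were higher and 2865 lower. NR4A2 and NR4A3, orphan receptors induced early by many stimuli, were among the higher genes, NR4A2 at 83.4 CPM in YFP-high against 7.53 CPM in YFP-negative cells and NR4A3 at 92.2 against 9.30 CPM. The clock repressor NR1D1 was 3.34-fold lower (3.05 to 3.66). The glucocorticoid receptor NR3C1 was 2.07-fold higher (2.01 to 2.13).

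**Figure D2:**
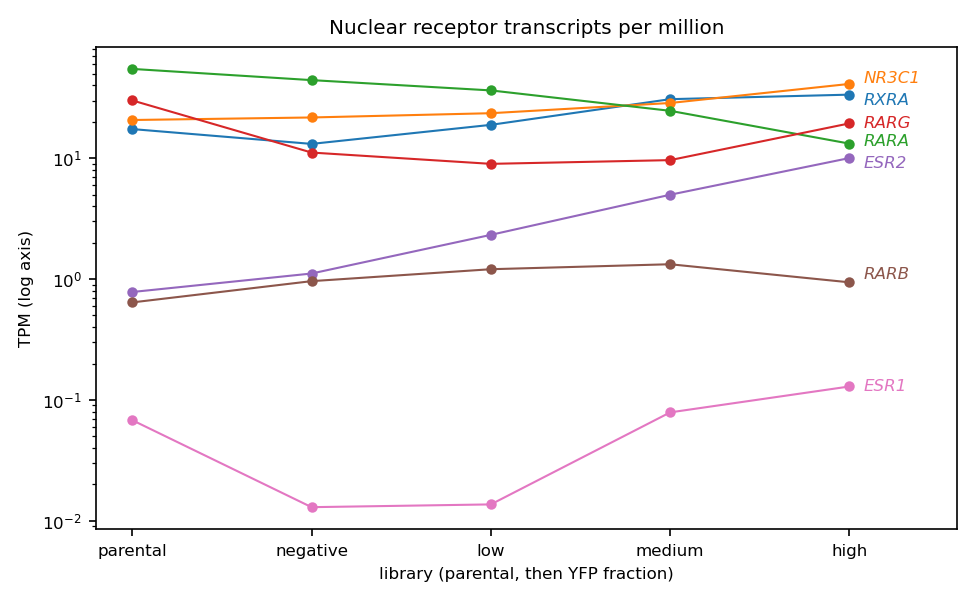
Length-corrected level (deposited TPM, log scale) of oestrogen, retinoid and glucocorticoid receptor genes in parental, YFP-negative, YFP-low, YFP-medium and then YFP-high cells, 1 library each. ESR2 climbs at every step from 1.11 TPM in YFP-negative cells while RARA descends to 13.2 TPM in YFP-high cells; ESR1 stays at or under 0.129 TPM.

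NCOA1, the first of the steroid receptor coactivators to be described, gave the largest change among the 7 genes analysed. For NCOA1, parental cells had 68.5 CPM, YFP-negative cells 58.1, YFP-low cells 71.5, YFP-medium cells 121 and YFP-high cells 241 CPM. Every pair of neighbouring libraries in this order of levels differed beyond counting error, and parental cells lay between YFP-negative and YFP-low cells. YFP-high cells exceeded YFP-negative cells by 4.14-fold (4.01 to 4.28), a log2 ratio of 2.04 that stood at percentile 92.9 of all genes analysed. In YFP-medium cells NCOA1 was 2.08-fold higher than in YFP-negative cells (2.01 to 2.16) and was the only 1 of the 7 genes called there, where 12.0% of all genes were called. That call was not made with total counts or with the deposited TPM; total counts moved the median of all genes by −0.21 there, and higher genes were 58.0% of those called in place of 81.5%, or 71.6% with TPM. In YFP-low cells it was 1.23-fold higher (1.18 to 1.28), so 14.5% of the log2 ratio of YFP-high cells had been reached in YFP-low and 51.5% in YFP-medium cells.

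NCOA2, a coactivator also known for its part in glucocorticoid action, was flat over most of the range. For NCOA2, parental cells had 68.8 CPM, YFP-negative cells 53.4, YFP-low cells 51.7, YFP-medium cells 58.7 and YFP-high cells 90.7 CPM. YFP-low and YFP-negative cells did not differ beyond counting error (fold 0.968, 0.927 to 1.01). YFP-high cells were 1.70-fold higher than YFP-negative cells (1.63 to 1.77), under the 2-fold rule, and 17.9% of that log2 ratio was present in YFP-medium cells.

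NCOA3, known as a gene amplified in breast cancer, ran against its relatives. For NCOA3, parental cells had 92.7 CPM, YFP-negative cells 69.2, YFP-low cells 67.0, YFP-medium cells 55.5 and YFP-high cells 47.9 CPM. Parental cells were the highest and YFP-high cells the lowest, while YFP-low and YFP-negative cells did not differ beyond counting error (fold 0.968, 0.932 to 1.01). YFP-high cells had 0.693 of the YFP-negative level (0.663 to 0.724) and 0.517 of the parental level (0.495 to 0.539), neither past 2-fold on the log2(CPM + 0.5) scale. With total counts or the deposited TPM the gap to parental cells did pass it.

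The makeup of the steroid receptor coactivator family therefore differed across the sort. Per length, the 3 genes summed to 82.7 TPM in parental cells, 65.7 TPM in YFP-negative cells, 67.6 TPM in YFP-low cells, 80.1 TPM in YFP-medium cells and 129 TPM in YFP-high cells. NCOA1 supplied 29.9%, 32.2%, 37.6%, 50.9% and 62.1% of that sum in the same order of libraries. NCOA3 supplied 35.4%, 33.6%, 30.9%, 20.5% and 10.8%. The 3 genes were thus near equal in parental and YFP-negative cells, and NCOA1 made up most of the sum in YFP-high cells. NCOA2 kept between 27.1% and 34.7%. NCOA1 had 5.02 reads for each NCOA3 read in YFP-high cells (4.83 to 5.22), against 0.840 in YFP-negative cells (0.808 to 0.873). This ratio is taken within a library and does not depend on the scaling.

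**Figure D3:**
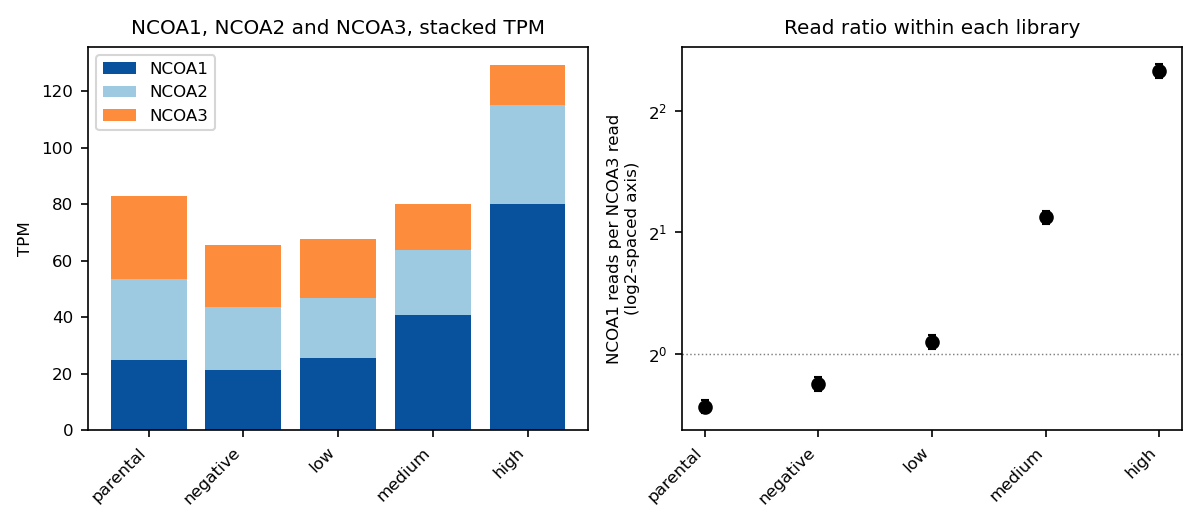
Left, length-corrected level (deposited TPM) of NCOA1, NCOA2 and NCOA3, stacked, in parental, YFP-negative, YFP-low, YFP-medium and then YFP-high cells; right, NCOA1 reads per NCOA3 read with exact 95% counting intervals. The sum reaches 129 TPM and the ratio 5.02 in YFP-high cells.

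The wider list of coactivators, which includes the 3 NCOA genes above, had 37 genes analysed. In YFP-high relative to YFP-negative cells 7 were called higher, 2 lower and 28 neither, where 20.5% of all genes were higher and 11.3% lower. The median log2 ratio of the list was 0.05. It changed sign with total counts (−0.22), with the deposited TPM (−0.077) and with parental cells as the baseline (−0.14). No direction is therefore given for the list. KAT2B, an acetyltransferase, stood at 100 CPM in YFP-high against 27.2 CPM in YFP-negative cells. CITED1, a partner of CREBBP and EP300, was 35.7-fold higher (29.9 to 43.0). The acetyltransferases CREBBP (1.81-fold) and EP300 (1.44-fold) themselves, and the mediator subunit MED1 (fold 0.656), did not pass 2-fold.

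NCOR1, the corepressor that holds HDAC3 on unliganded and antioestrogen-bound receptors, was the flattest of the 7 genes. For NCOR1, parental cells had 132 CPM, YFP-negative cells 120, YFP-low cells 132, YFP-medium cells 133 and YFP-high cells 117 CPM. In order of level, YFP-low and parental cells did not differ beyond counting error, nor did parental and YFP-medium cells. YFP-high and YFP-negative cells, the lowest pair, did not differ from each other either (fold 0.972, 0.943 to 1.00), while YFP-low cells exceeded YFP-negative cells (1.09-fold, 1.06 to 1.13). NCOR1 overlaps TTC19, a mitochondrial gene with 1174 to 1755 reads, in the RefSeq annotation, and reads of the overlap cannot be assigned. Per length, NCOR1 had 23.8 TPM in YFP-high and 26.7 TPM in YFP-negative cells. The coactivator sum amounted to 5.42 TPM for each NCOR1 TPM in YFP-high cells, against 2.45 in YFP-negative cells.

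NRIP1 encodes a corepressor that binds hormone-bound receptors and is itself a target of oestrogen and of retinoic acid. For NRIP1, parental cells had 60.2 CPM, YFP-negative cells 66.3, YFP-low cells 86.6, YFP-medium cells 131 and YFP-high cells 156 CPM. Every step differed beyond counting error, and the order was that of the gates with parental cells at the bottom. YFP-high cells exceeded YFP-negative cells by 2.36-fold (2.28 to 2.44) and parental cells by 2.60-fold (2.51 to 2.69). Of the log2 ratio of YFP-high cells, 31.1% was reached in YFP-low and 79.4% in YFP-medium cells, where the fold was 1.98 (1.91 to 2.05) and so just short of a call. NRIP1 thus had most of its gain by YFP-medium, whereas NCOA1 gained about as much again from YFP-medium to YFP-high on the log2 scale.

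Of 31 genes listed as corepressors, NCOR1 and NRIP1 among them, 30 were analysed. In YFP-high relative to YFP-negative cells 9 were called higher, 3 lower and 18 neither, where 20.5% of all genes were higher and 11.3% lower. The median log2 ratio of the list was 0.27, against −0.04 for all genes. With total counts 4 corepressors were higher and 4 lower, and their median was 0.02. Of all 15099 genes analysed with that scaling, 2415 were higher and 2865 lower. RCOR2, a subunit of the CoREST complex, had 114 CPM in YFP-high against 3.39 CPM in YFP-negative cells. LCOR, a ligand-dependent corepressor, had 317 against 86.7 CPM, and BCOR, a partner of the repressor BCL6, had 312 against 84.3 CPM. BCL6 itself was 2.59-fold lower (2.33 to 2.88). HDAC3 (fold 0.788) and GPS2 (1.34), which sit in the NCOR1 complex, did not pass 2-fold.

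RARA, the gene for retinoic acid receptor alpha, is induced by oestrogen in breast cancer cells. It was the only 1 of the 7 genes called lower in YFP-high cells. For RARA, parental cells had 91.0 CPM, YFP-negative cells 72.9, YFP-low cells 61.3, YFP-medium cells 43.9 and YFP-high cells 23.7 CPM. Each step lay lower than the one before, beyond counting error. YFP-high cells were 3.07-fold lower than YFP-negative cells (2.90 to 3.25) and 3.84-fold lower than parental cells (3.63 to 4.06). On the log2(CPM + 0.5) scale, 15.5% of the ratio of YFP-high to YFP-negative cells was present in YFP-low and 45.4% in YFP-medium cells. At a log2 ratio of −1.60, RARA stood at percentile 2.54 of all genes. NRIP1 and RARA, both oestrogen targets, moved apart: there were 6.59 NRIP1 reads per RARA read in YFP-high cells (6.25 to 6.96), against 0.909 in YFP-negative cells (0.876 to 0.943). RefSeq places the antisense RNA gene RARA-AS1 over RARA, and its reads cannot be told apart from those of RARA here.

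Within the retinoic acid receptor family, RARA lost its lead. The summed level of RARA, RARB and RARG was 85.5 TPM in parental cells, 56.3 TPM in YFP-negative cells, 46.6 TPM in YFP-low cells, 35.6 TPM in YFP-medium cells and 33.5 TPM in YFP-high cells. RARA was 64.1%, 78.5%, 78.1%, 69.2% and 39.3% of it in that order, and RARG was 35.2%, 19.8%, 19.3%, 27.1% and 57.9%. RARB, itself a retinoic acid target, never passed 3.72%. RXRA, the partner of all 3 receptors on DNA, was 2.79-fold higher in YFP-high than in YFP-negative cells (2.71 to 2.87). Of 31 genes listed for retinoid response, RARA among them, 19 were analysed, with 7 called higher, 4 lower and 8 neither, at a median log2 ratio of 0.47; of all genes 20.5% were higher and 11.3% lower. That median was 0.12 with total counts (6 higher, 5 lower), 0.067 with no minimum and 0.29 with a minimum of 5 CPM. RDH10, which makes retinal from retinol, had 199 CPM in YFP-high against 25.3 CPM in YFP-negative cells, and the plasma retinol carrier RBP4 had 53.2 against 2.07 CPM. Lower beside RARA were RDH11, another retinol dehydrogenase (52.0 CPM in YFP-high against 156 CPM in YFP-negative cells), the homeobox gene MEIS1 (2.32 against 10.1 CPM) and the retinoic acid target TGM2 (84.2 against 197 CPM). The retinoic acid target CYP26A1 had 8 reads in YFP-high and 5 in YFP-negative cells, too few for a comparison, and DHRS3, another target, was 1.84-fold higher.

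GREB1, among the genes most strongly induced by oestrogen in breast cancer cells and a cofactor of the receptor, was low throughout. For GREB1, parental cells had 8.43 CPM, YFP-negative cells 7.49, YFP-low cells 6.04, YFP-medium cells 5.37 and YFP-high cells 4.87 CPM, from 665, 625, 467, 364 and 311 reads. The levels ran downward through the sort, but YFP-high and YFP-medium cells did not differ beyond counting error, nor did YFP-medium and YFP-low cells. YFP-high cells had 0.650 of the YFP-negative level (0.565 to 0.745), not past 2-fold. Per length this was 0.985 TPM in YFP-high and 1.65 TPM in YFP-negative cells, the lowest level among the 7 genes analysed.

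The wider list of oestrogen targets, with GREB1, NRIP1 and RARA in it, held 54 genes, of which 44 were analysed. In YFP-high relative to YFP-negative cells 17 were called higher, 7 lower and 20 neither, where 20.5% of all genes were higher and 11.3% lower. The median log2 ratio was 0.17, or −0.076 with total counts, so the list had no direction common to both scalings. PGR and TFF1, textbook targets of the receptor, had at most 1 read in any library. MYB, another gene of the list, was called higher and had its largest log2 ratio, 5.20. OLFM1 (290 against 25.6 CPM) and the growth factor receptor gene RET (6.76 against 0.312 CPM) were among the higher genes. IGFBP5, an IGF-binding protein, had 13.9 against 89.0 CPM, and the small heat shock gene HSPB8 had 20.7 against 86.6 CPM. The cyclin CCND1 (fold 0.759) and the protease CTSD (0.812) did not pass 2-fold.

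**Figure D4:**
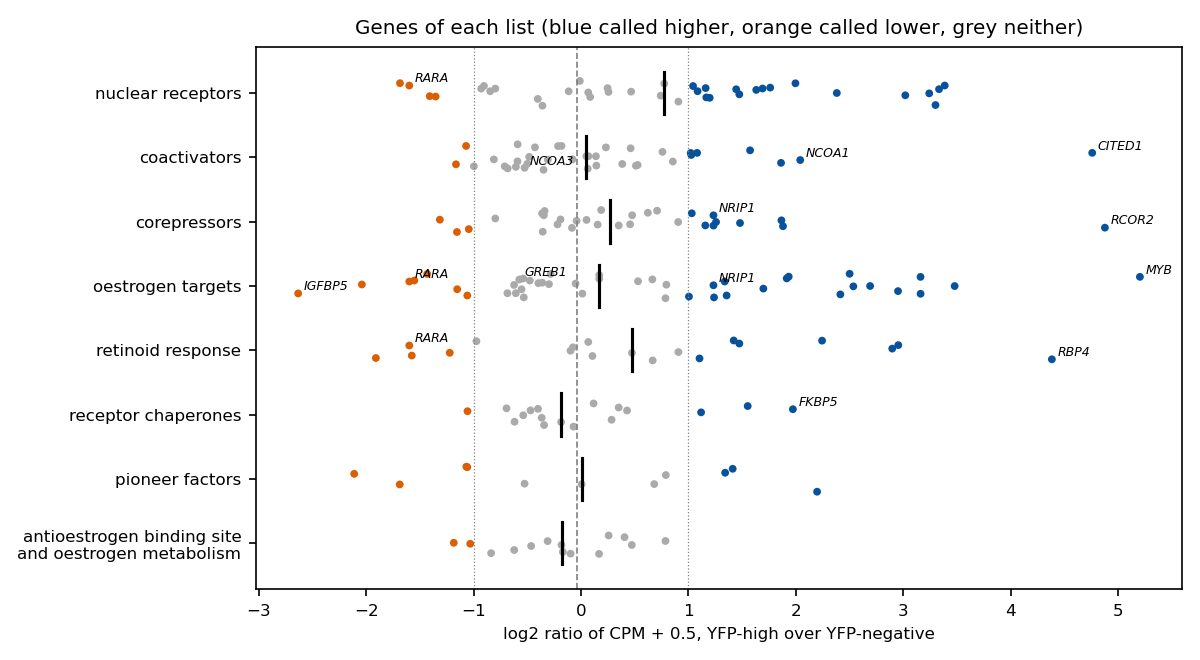
Log2 ratio (CPM + 0.5) of YFP-high to YFP-negative cells for every analysed gene of 8 pathway lists, 1 point a gene; black bars are list medians, the dashed line is the median of all genes and dotted lines mark 2-fold. Blue points were called higher, orange lower and grey neither. Each list holds genes on both sides of 0, with medians between −0.19 for receptor chaperones and 0.78 for nuclear receptors.

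Of 17 receptor chaperones 3 were called higher, 1 lower and 13 neither, where 20.5% of all genes were higher and 11.3% lower. Total counts and the deposited TPM each gave 2 higher. FKBP5, a cochaperone of steroid receptors, had 303 CPM in YFP-high against 76.7 CPM in YFP-negative cells, and HSP90AA1 was 2.17-fold higher (2.16 to 2.19). AHSA1, which activates HSP90, was 2.09-fold lower (2.02 to 2.15). Of 11 pioneer and partner factors analysed 3 were higher and 4 lower. TLE3 had 411 CPM in YFP-high against 89.3 CPM in YFP-negative cells, while FOXA1, the main pioneer of the receptor in breast cells, had 50 reads in YFP-high and 23 in YFP-negative cells. Of 14 analysed genes of the antioestrogen binding site and of oestrogen metabolism 0 were higher, 2 lower and 12 neither, against the same shares of all genes. The lower calls numbered 3 with total counts, 1 with DESeq2 size factors or a minimum of 5 CPM, and 0 with a pseudocount of 2 CPM or with parental cells as the baseline.

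**Figure D5:**
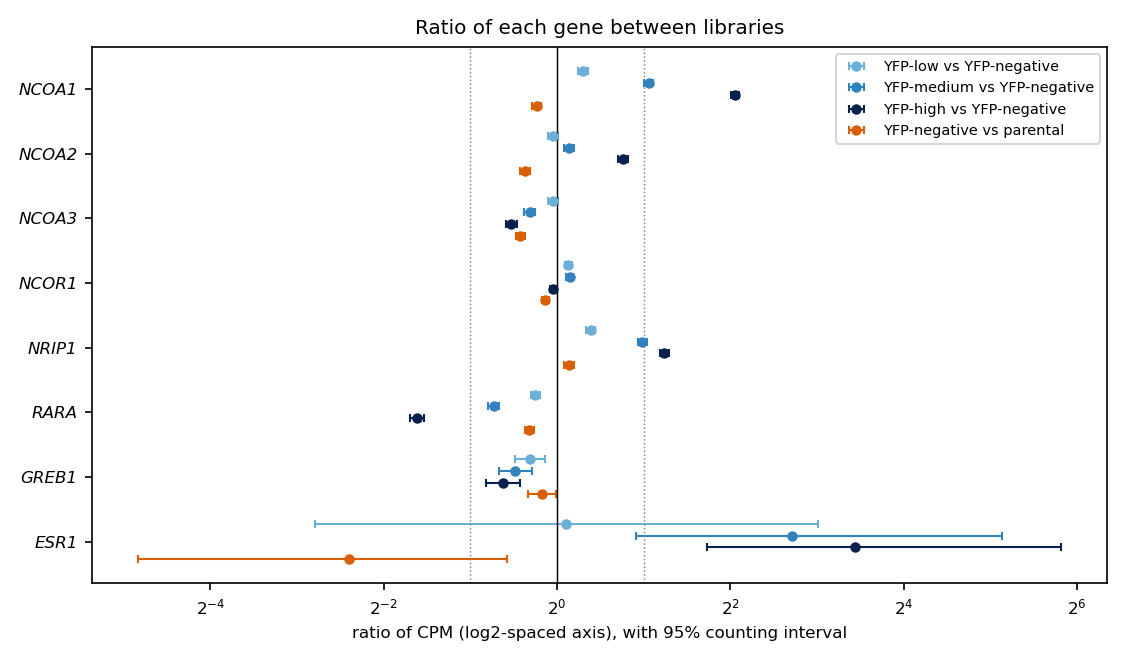
Ratio of CPM (log2-spaced axis) of the 7 analysed genes and ESR1 in YFP-low, YFP-medium and YFP-high relative to YFP-negative cells, and in YFP-negative relative to parental cells; bars are exact 95% counting intervals and dotted lines mark 2-fold. NCOA1 reaches 4.14 and RARA 0.326 in YFP-high relative to YFP-negative cells, and ESR1 has the widest intervals.

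At the separate steps, 0 of the 7 genes were called in YFP-low relative to YFP-negative cells, where 2.16% of all genes were, 0 in YFP-medium relative to YFP-low cells (2.89% of all genes) and 0 in YFP-high relative to YFP-medium cells (10.6%). The nearest to the limit was NCOA1 in the last of these, which was called with DESeq2 size factors. Levels ran in 1 direction through all 4 construct libraries for 5 of the 7 genes, NCOA1 and NRIP1 upward and RARA, NCOA3 and GREB1 downward. Such order was found in 51.9% of all genes, upward in 24.1% and downward in 27.9%. When every step also had to differ beyond counting error, 3 of the 7 remained (NCOA1, NRIP1 and RARA), against 30.8% of all genes, 15.6% upward and 15.2% downward.

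YFP-negative and parental cells, which differ in carrying the construct, differed by less than 2-fold in each of the 7 genes that passed the minimum. None of these was called, against 5.08% of all genes. NCOA3 had 0.746 of the parental level (0.721 to 0.773), NCOA2 0.776 (0.746 to 0.808), RARA 0.801 (0.774 to 0.829) and NCOA1 0.849 (0.816 to 0.882). ESR1, under the minimum, had 0.189 of the parental level in YFP-negative cells (0.0351 to 0.668), on 3 reads against 15 in parental cells. The summed level of 10 osteoblast lineage markers was 2267 CPM in YFP-negative and 4680 CPM in parental cells. Of these markers 6 were analysed, with 0 called higher, 1 lower and 5 neither, at a median log2 ratio of −0.23. The sum thus does not describe most of the markers. The part of these markers in the differences above was not tested. In YFP-high relative to parental cells, NCOA1 (3.51-fold, 3.41 to 3.63), NRIP1 and RARA were called, 3 of 7 genes, where 36.2% of all genes were. Total counts moved the median of all genes by −0.23 in that comparison, and higher genes were 45.3% of those called in place of 58.9%. Comparisons with YFP-high or YFP-negative cells share those libraries.

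Leukocyte and endothelial markers were low. Of 6 leukocyte markers 1 to 2 reached 1 CPM, with sums between 5.37 and 16.8 CPM and highest in YFP-high cells, CORO1A giving most of it. Of 6 endothelial markers 2 to 3 did, with sums between 4.84 and 7.52 CPM. Of 10 luminal breast markers, a list that includes ESR1 and PGR, 6 did, with sums between 458 and 578 CPM that lay lowest in YFP-high cells and came mostly from KRT8 and KRT18. Their part in the levels of the 8 genes was not tested.

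For the 3 genes called in YFP-high cells, the genes with the most similar profile were sought as those with the smallest root mean square difference of centred log2(CPM + 0.5) over the 5 libraries, among genes with at least 5 CPM in 1 library. Nearest to NCOA1 were TMEM65 (0.05), MRAS (0.06) and CYP27C1 (0.07). TMEM65 had 388 CPM in YFP-high against 94.8 CPM in YFP-negative cells. Nearest to NRIP1 were ATP11A (0.03), ZNF664 (0.04) and SORT1 (0.04), and SORT1 had 411 against 178 CPM. Nearest to RARA were a transcript with no gene symbol (0.03), RNF146 (0.03) and ABHD4 (0.04), and ABHD4 had 19.2 against 57.6 CPM. With 5 libraries such likeness describes the profiles only.

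The chromosomal neighbours of these 3 genes, by RefSeq gene order, went both ways. ITSN2, next to NCOA1, was called higher in YFP-high cells (2.58-fold, 2.51 to 2.66), while PTRHD1 and CENPO on the other side had folds of 1.02 and 1.06. USP25, beside NRIP1, was 1.85-fold higher (1.78 to 1.93) and HSPA13, on its other flank, had a fold of 0.532 (0.517 to 0.546). CDC6, the replication licensing gene next to RARA, was 1.34-fold higher (1.31 to 1.38), and TOP2A had a fold of 0.813 (0.803 to 0.823), while WIPF2, beyond CDC6, had a fold of 0.638 (0.611 to 0.665). GJD3, next to RARA on the side of TOP2A, had 6 reads in YFP-high and 27 in YFP-negative cells (fold 0.290, 0.0979 to 0.717) and was under the minimum. Of these 4 genes 3 had folds under 1, where the median log2 ratio of all genes was −0.04. None of the 4 was called, against 31.7% of all genes analysed. Whether their place on the chromosome bears on RARA was not tested.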

How the data were processed

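The authors deposited raw read counts per gene name, with no normalisation, and a second table in TPM, transcripts per 1000000 corrected for gene length. HISAT2 2.0.3, HTSeq 0.6.0, Trimmomatic 0.36, bcl2fastq and CASAVA 1.8.2, with build hg19, are named in the submitters' processing notes. The annotation, the strand setting and the tool behind the TPM values are named in no source used here. TPM matched the count over a fixed length per gene, within 1%, for 14343 of 14781 genes with at least 20 reads in each library, so it is another scaling of the same reads and not a second measurement.

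Rows naming no gene were left out. Counts were scaled by TMM in edgeR 4.0.16 (R 4.3.3), and 15109 genes with at least 1 CPM in 1 library were analysed. Log2 ratios used a pseudocount of 0.5 CPM and understate changes of low genes. Folds carry exact 95% intervals (Clopper-Pearson). A count of 3 reads, the floor, equals between 0.0360 CPM (YFP-negative) and 0.0469 CPM (YFP-high). Ratios and figures were made with scipy 1.17.1, pandas 2.3.3, numpy 2.4.6 and matplotlib 3.10.9 in Python 3.11.15; the call rule was tested on simulated data. Alternatives tried were total counts, size factors of DESeq2 1.42.0, no minimum, a minimum of 5 CPM, a pseudocount of 2 CPM, a 1.5-fold rule, the deposited TPM, and parental cells as baseline.

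The 8 genes and the lists were chosen with earlier results of these data known. Beside E2F1 and the 8 genes, the text names preset genes of each list, up to 4 called genes per direction and list with the largest log2 ratio and at least 5 CPM, the 3 nearest profiles and the 2 nearest genes on each side. Some genes that this rule names are not reported here. Marker genes named singly were picked for the text after their values were seen. Of the listed genes 1 had no matching name. RefSeq coordinates are those of GRCh38.p14 and were not joined to hg19 positions.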

Additional observations from a re-analysis of the deposited data

How the results depend on the processing

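In YFP-high relative to YFP-negative cells, the log2 ratios of the 7 genes kept their sign under all alternatives run, with ranges of 1.77 to 2.08 for NCOA1, 0.96 to 1.37 for NRIP1, 0.40 to 0.79 for NCOA2, −0.31 to −0.01 for NCOR1, −0.94 to −0.49 for NCOA3, −0.82 to −0.47 for GREB1 and −1.92 to −1.54 for RARA. NRIP1 lost its call with total counts, and NCOA2 gained one with the 1.5-fold rule. The number of the 7 genes called in YFP-medium relative to YFP-negative cells was 1, and became 0 with total counts, 0 with the deposited TPM and 3 with the 1.5-fold rule. That rule also gave 5 in place of 3 in YFP-high relative to parental cells, 2 in place of 0 in YFP-medium relative to YFP-low cells and 3 in place of 0 in YFP-high relative to YFP-medium cells, where DESeq2 size factors gave 1. Other counts of the 7 genes, 42 of 49 alternatives, stayed within 1.5 times. The list medians reversed in 7 of 64 alternatives: coactivators (0.05) became −0.22 with total counts, −0.077 with the deposited TPM and −0.14 with parental cells as baseline, oestrogen targets (0.17) became −0.076 with total counts, and pioneer factors (0.01) became −0.26, −0.12 and −0.39 with the same 3. The 1.5-fold rule admits smaller changes by construction; for the others the cause was not tested. Of all genes, that rule called 54.7% in place of 31.7% in YFP-high, 30.8% in place of 12.0% in YFP-medium and 8.61% in place of 2.16% in YFP-low relative to YFP-negative cells, 58.2% in place of 36.2% in YFP-high and 15.6% in place of 5.08% in YFP-negative relative to parental cells, 13.2% in place of 2.89% in YFP-medium relative to YFP-low cells and 28.7% in place of 10.6% in YFP-high relative to YFP-medium cells. A pseudocount of 2 CPM lowered these to 1.40% for YFP-low relative to YFP-negative, 2.72% for YFP-negative relative to parental, 1.60% for YFP-medium relative to YFP-low and 6.70% for YFP-high relative to YFP-medium cells. With no minimum the shares were 17.7% in YFP-high, 6.51% in YFP-medium and 1.18% in YFP-low relative to YFP-negative cells, 20.2% in YFP-high and 2.83% in YFP-negative relative to parental cells, 1.57% in YFP-medium relative to YFP-low and 5.99% in YFP-high relative to YFP-medium cells, since the genes added have few reads. The other 57 list medians kept their sign, and none of them shifted by more than a 1.5-fold change. In some lists the log2 value itself still grew or shrank over 1.5 times, which for small medians can be a small shift. Nuclear receptors went to 0.44 with parental cells as baseline and 0.49 with a pseudocount of 2 CPM, in place of 0.78. Corepressors went to 0.02 with total counts and 0.15 with TPM, in place of 0.27. Oestrogen targets went to 0.01 with no minimum and 0.055 with TPM, in place of 0.17. Retinoid response went to 0.12 with total counts, 0.067 with no minimum and 0.29 with a minimum of 5 CPM, in place of 0.47. The same held for receptor chaperones (−0.46 with total counts, −0.31 with TPM and −0.10 with parental cells, in place of −0.19), antioestrogen binding and oestrogen metabolism (−0.44 with total counts, −0.30 with TPM, −0.065 with no minimum and −0.056 with parental cells, in place of −0.18), pioneer factors (0.43 with no minimum and 0.04 with DESeq2 size factors) and coactivators (0.09 with DESeq2 size factors). No paired analysis was possible because each group has 1 library, and for the same reason no library could be left out. Depth limits ESR1, with at most 25 reads, and the other 7 genes have at least 311 reads in every library.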
